A study of Mus musculus with 2 samples.

Results

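The 10 genes described here are the trefoil factors *Tff1*, *Tff2* and *Tff3*, the gastrokines *Gkn1*, *Gkn2* and *Gkn3*, and the mucins *Muc1*, *Muc5ac*, *Muc5b* and *Muc6*. They were taken by name as the secreted and surface products of gastric mucous cells, and all 10 are among the 19550 genes of the count matrix. Their level was followed in the cells labelled Columnar Epithelial, 1540 of 7808 cells, by region and stage, beside the 354 cells labelled Immune as the background. The cells came from wild type C57BL/6 mice at E15 (6 mice), E19 (2 mice), day 2 after birth (pup, 2 mice) and 8 weeks (adult, 3 mice). Esophagus, GE-SCJ (the gastroesophageal squamocolumnar junction) and stomach were tagged by region and stage with multiplexing oligonucleotides and run as 1 pool of single-cell 3′ libraries, and the cells used here carry 11 tags, adult stomach not being analysed here. Because the mice of a region and stage were pooled under 1 tag, each group was a single sample. No test between groups was possible, and the intervals given below cover counting error only, at 95%.

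The gastric surface is lined by pit (foveolar) cells, which secrete a gel of *Muc5ac* mucin together with the trefoil peptide *Tff1* and the gastrokines *Gkn1* and *Gkn2*. Mucous neck cells deeper in the gland secrete *Muc6* mucin with *Tff2*, and *Gkn3* is known as a neck cell product in the mouse. *Tff3* belongs mainly to intestinal goblet cells, *Muc5b* to airway and salivary mucus, and *Muc1* is a membrane-bound mucin on the apical side of many epithelia.

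The columnar label went with its markers. All 8 columnar markers measured (*Epcam*, *Krt8*, *Krt18*, *Krt19*, *Cldn18*, *Gata4*, *Gata6*, *Foxa2*) were more than 2-fold above the immune cells, with a summed level of 5371 CPM (UMIs of a gene per 1000000 UMIs of all genes) in columnar and 515 CPM in immune cells. In squamous cells they summed to 1839 CPM, and *Krt19* was at 833 CPM there against 779 CPM in columnar cells. The 5 squamous markers summed to 92.7 CPM and the 7 immune markers to 12.3 CPM in columnar cells. The 5 fibroblast markers summed to 464 CPM in columnar and 1224 CPM in immune cells. Genes of chief and parietal cells (*Pgc*, *Atp4a*, *Atp4b*) summed to 18612 CPM, so the label also held glandular cells. The endocrine genes *Chga* and *Ghrl* summed to 987 CPM in columnar, 90.3 CPM in immune and 1952 CPM in squamous cells. The groups with most columnar cells were the stomach at E15 (140 cells), E19 (366) and pup (351) and the GE-SCJ at E15 (53), E19 (274) and pup (291), with group medians of 22286 to 29810 UMIs per cell. The adult GE-SCJ gave 19 columnar cells, and the esophagus 7 to 20 per stage.

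All but *Muc1* lie in 3 clusters on GRCm38, the build of the counts. *Tff3* (chr17:31125306-31129646), *Tff2* (chr17:31141049-31144282) and *Tff1* (chr17:31161395-31165277) follow each other on the minus strand with no other protein-coding gene between them. *Gkn1* (chr6:87345650-87350942, minus strand), *Gkn2* (chr6:87373357-87379497, plus strand) and *Gkn3* (chr6:87383256-87388935, minus strand) are neighbours too, with 22.4 kb and 3.76 kb between them. *Muc6* (chr7:141633456-141655319, minus strand), *Muc5ac* (chr7:141788972-141819231, plus strand) and *Muc5b* (chr7:141839070-141873084, plus strand) share a cluster with *Muc2*, and *Muc1* lies alone on chr3:89229057-89233381. *Tff1* overlaps a GENCODE gene on the opposite strand, Gm15318, and no other member overlaps an annotated gene.

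The RefSeq promoter table (GRCm38.p6, 250 bases before to 50 after each start) held 5 of the 10 genes. The 4 windows below are shown because *Gkn1* and *Gkn2* followed each other cell by cell and *Gkn3* went with *Muc6* instead, although *Gkn3* is the nearer neighbour of *Gkn2*. The motif AGATAA, known from binding sites of GATA factors, was searched on both strands. The same was done with the letters TATAAA of the promoter core element, and with TGTTTAC, known from forkhead factors. Capitals mark every match, and each sequence reads 5′ to 3′ on the strand of the gene.
Gkn1 (chr6:87350866-87351165, minus strand): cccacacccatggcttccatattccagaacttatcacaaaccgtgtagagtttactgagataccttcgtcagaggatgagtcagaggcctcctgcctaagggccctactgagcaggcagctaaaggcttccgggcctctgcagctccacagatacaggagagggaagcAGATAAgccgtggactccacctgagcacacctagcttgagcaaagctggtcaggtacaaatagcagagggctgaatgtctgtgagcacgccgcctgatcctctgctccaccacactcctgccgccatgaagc
Gkn2 (chr6:87373115-87373414, plus strand): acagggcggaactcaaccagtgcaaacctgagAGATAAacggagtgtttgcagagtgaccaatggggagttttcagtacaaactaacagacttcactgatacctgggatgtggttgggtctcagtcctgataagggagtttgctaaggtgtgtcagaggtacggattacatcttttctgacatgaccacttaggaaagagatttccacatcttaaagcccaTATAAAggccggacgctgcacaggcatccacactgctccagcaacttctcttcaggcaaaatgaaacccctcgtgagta
Gkn3 (chr6:87388886-87389185, minus strand): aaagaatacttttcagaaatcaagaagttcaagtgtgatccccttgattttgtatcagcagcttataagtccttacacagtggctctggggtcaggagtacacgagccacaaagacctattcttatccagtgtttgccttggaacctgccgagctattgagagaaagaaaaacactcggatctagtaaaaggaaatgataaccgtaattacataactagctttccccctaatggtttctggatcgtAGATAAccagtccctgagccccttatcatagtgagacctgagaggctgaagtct
Muc6 (chr7:141655344-141655643, minus strand): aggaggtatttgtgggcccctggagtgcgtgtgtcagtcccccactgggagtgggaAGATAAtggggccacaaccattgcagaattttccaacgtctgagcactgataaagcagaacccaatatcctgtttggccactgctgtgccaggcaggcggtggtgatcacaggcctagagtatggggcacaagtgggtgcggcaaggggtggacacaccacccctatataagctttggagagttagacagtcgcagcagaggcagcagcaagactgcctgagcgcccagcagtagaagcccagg
AGATAA stood once in each of these 4 windows and not in that of *Muc1*, and 11.2% of the 32851 promoters in the table hold it on either strand. TATAAA stood in the windows of *Gkn2* and *Muc1*, and 13.6% of promoters hold it. TGTTTAC, held by 3.65% of promoters, was in none of the 5. These are matches of letters only, in windows where no binding was measured. The RefSeq start of *Muc6* lies upstream of the GENCODE gene given above.

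A part of the E15 signal came from few cells that the authors' clustering placed with pup cells. It put the columnar cells in 3 clusters, numbered 2, 5 and 12. Cluster 5 held 491 columnar cells, 448 of them tagged as pup, and 13 tagged as E15. Those 13 of the 202 columnar cells tagged E15 held 75.2% of all E15 *Tff2* UMIs, 87.1% of *Gkn3* and 82.4% of *Muc6*. Their median level of *H19*, an imprinted RNA that is abundant before birth, was 456 CPM, against 3683 CPM in the other 189 E15 cells and 74.4 CPM in the pup cells of the same cluster. In the other direction, 13 of the 26 columnar cells tagged adult were in cluster 2, whose cells were mostly prenatal, with a median of 3381 CPM of *H19*, and the 11 adult cells of cluster 5 had 96.6 CPM. Why tag and cluster differed in these cells was not tested. Values that rest on them are given below with and without them, a comparison chosen after the data were seen.

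In the columnar cells as a whole, each of the 10 genes was higher than in immune cells by more than 2-fold (10 of 10, where 18.5% of 12135 genes were). The ratio ran from 6.57-fold for *Muc6* to 29.2-fold for *Tff3*, the latter against 8 UMIs in all immune cells together. The immune cells had 426 CPM of *Tff1*, 176 of *Gkn2*, 122 of *Gkn1*, 75.5 of *Tff2*, 64.6 of *Muc6*, 34.0 of *Muc5b*, 32.9 of *Gkn3*, 29.2 of *Muc1*, 4.25 of *Muc5ac* and 2.13 of *Tff3*. The 7 further labels had nearly the same mix, with *Tff1* between 353 and 455 CPM and making up 36.9% to 46.9% of the UMIs of the 10 genes in each. *Muc1* was the exception to this mix, at 259 CPM in the second squamous label against 254 CPM in columnar cells and 11.2 to 29.2 CPM in the other labels. The immune level was taken as the background for every value below, and the part of free RNA in it was not tested. Immune cells were shallower than columnar cells (median 8266.5 against 25118 UMIs). Whether the background in CPM is the same in deeper cells was not tested, so a level at or under the immune one does not show that a gene was not expressed. In the 29 cells of the second squamous label from the pup esophagus, where it could be followed, *Muc1* stood at 321 CPM.

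**Figure D1:**
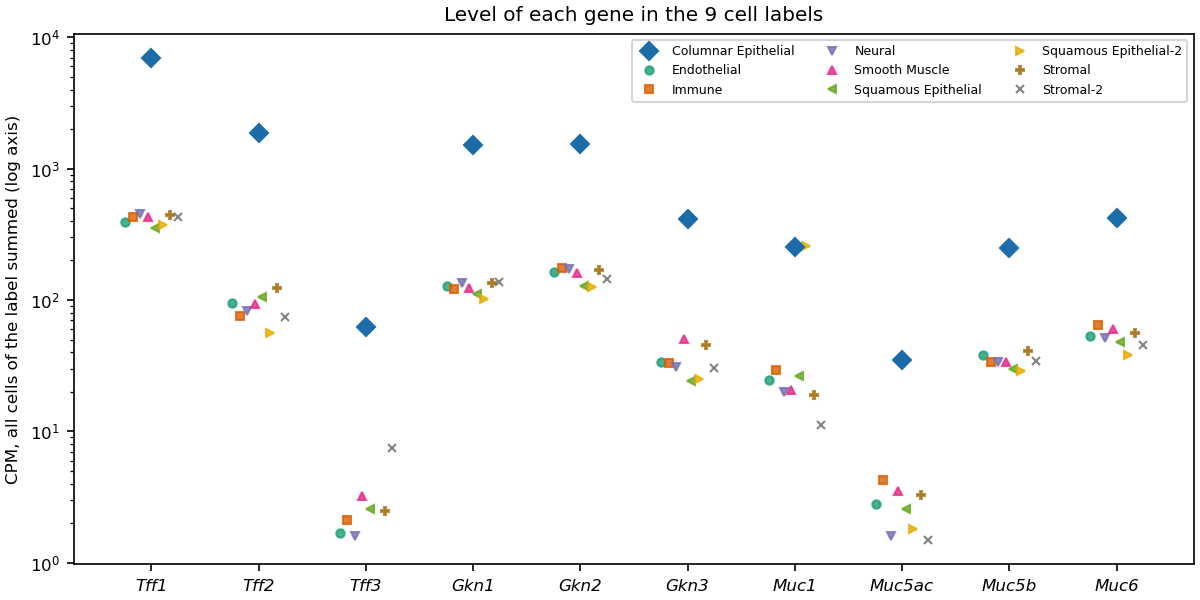
Level of each gene in CPM (log axis) with all cells of a label summed, for the columnar label (diamonds) and the 8 other labels. Columnar cells lie above all others for every gene but *Muc1*, where the second squamous label reached 259 CPM. *Tff3* had no UMI in that label and is not drawn there.

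The pit genes *Gkn1* and *Gkn2* were above background in the stomach at E19 and in the pup, and in the GE-SCJ in the pup. In stomach columnar cells *Gkn1* went from 98.9 CPM at E15 over 693 CPM at E19 to 2601 CPM in the pup. In the stomach 1 cell held 19.3% of the *Gkn1* UMIs at E19 and 1 held 27.2% in the pup. For *Gkn2* in the pup stomach the top cell held 27.3%. In the GE-SCJ *Gkn1* had 126 CPM at E15 and 92.7 at E19, but 3348 in the pup, and 178 in the adult. The immune level was 122 CPM, with the stomach above it from E19 on, and the GE-SCJ above it in the pup. In the adult, the 6 immune cells had 260 CPM of *Gkn1* and 467 of *Gkn2*, more than the columnar cells of the GE-SCJ. *Gkn2* had 122, 671 and 2645 CPM at the same 3 stages of the stomach. In the GE-SCJ it had 144, 110 and 3403 CPM, and 206 in the adult. As log2 ratios of CPM, *Gkn1* was 2.81 higher at E19 than at E15 in the stomach (interval 2.66 to 2.96) and 5.17 higher in the pup than at E19 in the GE-SCJ (5.06 to 5.29), and *Gkn2* was 2.46 and 4.95 higher. Both prenatal GE-SCJ values of these genes were near or below the immune level, and the log2 differences between them (-0.45 and -0.39) turned to 0.49 and 0.36 without the top 1% of cells. Without the cells that had a UMI of all 4 genes *Vcan*, *Igf2*, *Sox11* and *H19*, these differences were -1.52 and -1.34.

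*Tff1*, the trefoil peptide of pit cells, was above background at every stage. It was already at 1568 CPM in the stomach and 1641 in the GE-SCJ at E15, over the immune 426. At E19 it stood at 6829 CPM in the stomach and 2506 in the GE-SCJ, and in the pup at 8826 and 12176. The log2 ratio from E15 to E19 was 2.12 in the stomach and 0.61 in the GE-SCJ, and from E19 to pup it was 0.37 and 2.28. The larger step therefore fell before birth in the stomach and after birth in the GE-SCJ, as for *Gkn1* and *Gkn2*. At E15 in the GE-SCJ a single cell held 54.7% of the *Tff1* UMIs, with 149 CPM of *H19*. Without the top 1% of cells the log2 ratio from E15 to E19 there was 1.34 for *Tff1*, and without the cells that had a UMI of all 4 genes *Vcan*, *Igf2*, *Sox11* and *H19* (36 of 53 cells at E15) it was -0.34.

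Of the gel-forming mucins *Muc5ac* and *Muc5b*, *Muc5ac* did not follow *Gkn1* and *Gkn2* in level, and *Muc5b* did so only in part. *Muc5ac* had 18.1, 27.1 and 26.6 CPM in the stomach at E15, E19 and pup, and 39.3, 67.3 and 35.1 CPM in the GE-SCJ, all over the immune 4.25. It was thus higher in the GE-SCJ at each of the 3 stages, by 1.12, 1.31 and 0.40 as log2 ratios, and its GE-SCJ level was highest at E19. *Muc5b* had 24.9 CPM in the E15 stomach, under the immune 34.0, then 203 at E19 and 218 in the pup. In the GE-SCJ it had 43.1, 198 and 550 CPM. The log2 ratio from E15 to E19 was 3.02 in the stomach (2.72 to 3.33) and 2.18 in the GE-SCJ (1.80 to 2.58). From E19 to pup it was 0.10 in the stomach and 1.47 in the GE-SCJ. *Muc5b* was the only member past 2-fold from E15 to E19 in both regions.

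In the stomach and GE-SCJ, the neck genes *Muc6*, *Gkn3* and *Tff2* were higher in the pup than before birth. *Muc6* had 91.1 CPM in the stomach at E19 and 841 in the pup, and 60.2 and 664 CPM in the GE-SCJ, where the E19 level was at the immune 64.6. As log2 ratios these are 3.21 (3.11 to 3.31) and 3.46 (3.32 to 3.61). *Gkn3* had 183 CPM at E19 and 911 in the pup stomach, and 60.0 and 207 CPM in the GE-SCJ, so that the stomach was higher by 1.60 at E19 and 2.13 in the pup. In the E19 GE-SCJ, 1 cell held 47.9% of the *Gkn3* UMIs. *Tff2* had 1015 and 2488 CPM in the stomach and 1174 and 3146 CPM in the GE-SCJ, with log2 ratios of 1.29 and 1.42.

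The E15 values of these 3 genes turned on the cells of cluster 5. With all cells, the E15 stomach had 209 CPM of *Muc6*, 244 of *Gkn3* and 1061 of *Tff2*, and 1 cell held 56.8% of the *Muc6* and 72.9% of the *Tff2* UMIs. Without the 5 cells of cluster 5 among 140, the values were 48.4, 81.2 and 238 CPM. At E19, 32 of 366 stomach cells were left out as well, 7 of cluster 5 and 25 of cluster 12. The log2 ratio from E15 to E19 in the stomach then went from -1.20 to 0.82 for *Muc6*, from -0.42 to 1.19 for *Gkn3* and from -0.06 to 2.10 for *Tff2*. In the GE-SCJ, 1 of 53 cells was of that cluster, it held 59.0% of the E15 *Tff2* UMIs, and *Tff2* went from 645 to 274 CPM without it. *Gkn3* (31.0 CPM) and *Muc6* (31.7 CPM) in the E15 GE-SCJ were at or under the immune level. The 9 columnar cells of the E15 esophagus, 7 of them of cluster 5, had 7144 CPM of *Gkn3*, 2058 of *Muc6* and 1634 of *Tff2*, and 1 of these cells held 88.9% of the *Gkn3* UMIs.

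*Tff3* was low and highest in the pup GE-SCJ. It had 52.6, 29.1 and 62.6 CPM in the stomach at E15, E19 and pup, and 35.5, 19.5 and 154 CPM in the GE-SCJ, over an immune level of 2.13. The log2 ratio from E15 to E19 was -0.85 in the stomach and -0.88 in the GE-SCJ, and from E19 to pup 1.10 and 2.97. Without the top 1% of cells, the stomach value of *Tff3* at that step was 0.67, no longer past 2-fold. *Muc1* differed by less than 2-fold between E19 and pup in both regions. It had 94.8, 275 and 246 CPM in the stomach and 159, 263 and 324 CPM in the GE-SCJ, against an immune level of 29.2. Its log2 ratio from E15 to E19 was 1.54 in the stomach (1.38 to 1.70) and 0.72 in the GE-SCJ (0.52 to 0.94).

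**Figure D2:**
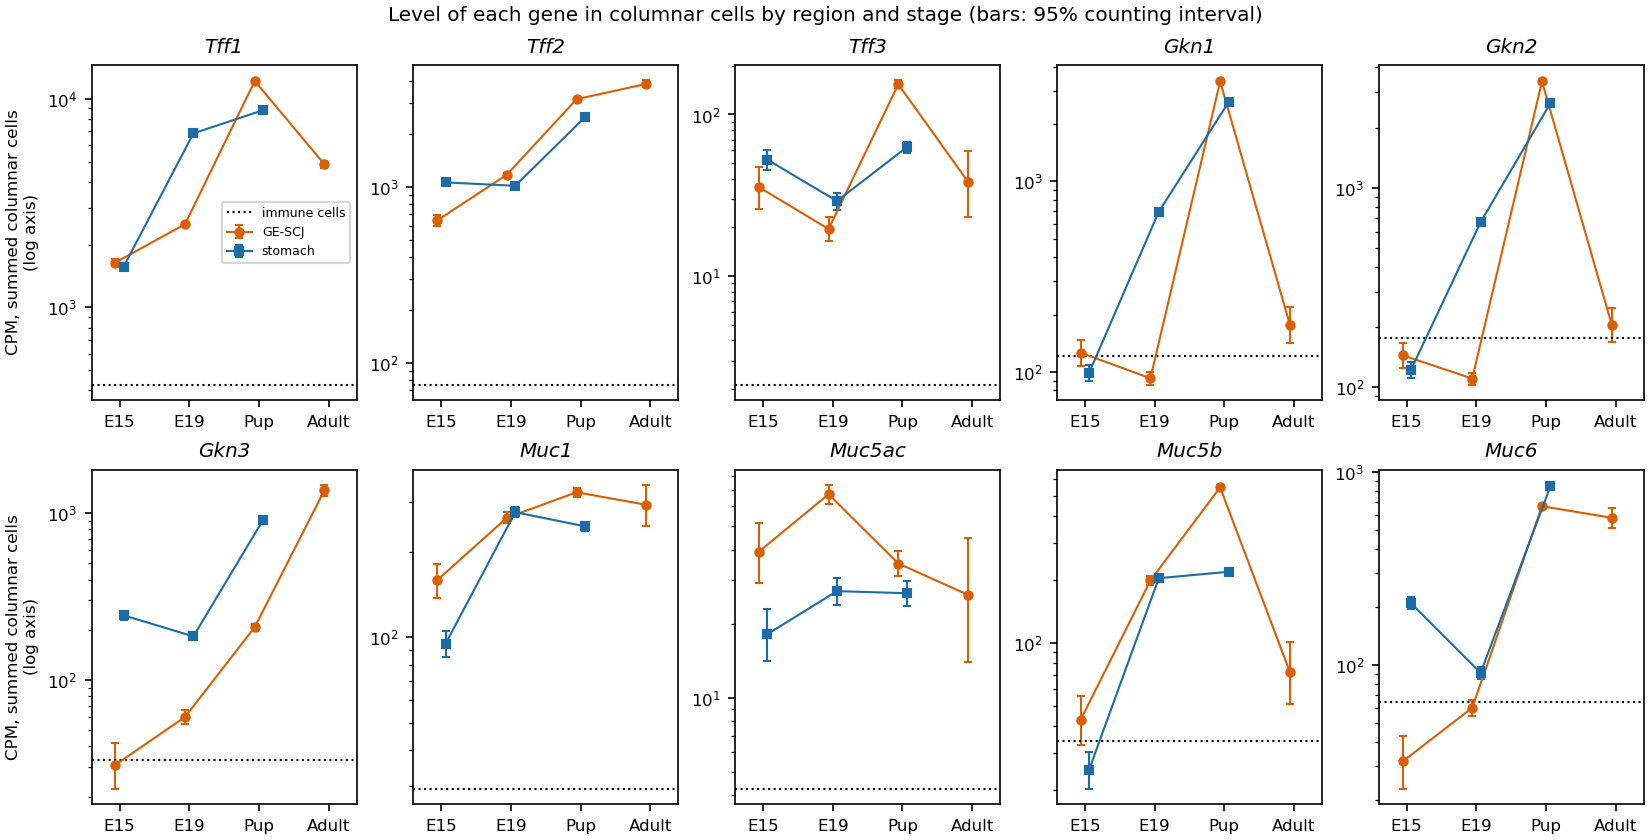
CPM of each gene in summed columnar cells (log axis) at E15, E19, pup and adult, for the GE-SCJ (circles) and the stomach (squares), with bars for the 95% counting interval and a dotted line for all immune cells. *Gkn1* and *Gkn2* of the GE-SCJ sit near the immune line until E19 and at 3348 and 3403 CPM in the pup.

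The counts of members past 2-fold are set beside those over all genes. The share of all tested genes (at least 100 UMIs in the 2 groups together) that were 2-fold apart is given with each count, all 10 members had at least 100 UMIs in each comparison, and the E19 cells enter both steps. From E15 to E19 in the stomach, 5 of 10 members were at least 2-fold higher (*Tff1*, *Gkn1*, *Gkn2*, *Muc1*, *Muc5b*) where 3.20% of 9207 genes were, and 1 was lower (*Muc6*, a call that rests on the cells of cluster 5) where 2.60% were. The median log2 ratio was 1.05 for the members and -0.16 for all tested genes. From E19 to pup in the stomach, 6 were higher (*Tff2*, *Tff3*, *Gkn1*, *Gkn2*, *Gkn3*, *Muc6*) against 5.48% of genes, and 0 lower against 9.84%, with medians of 1.20 and -0.25. In the GE-SCJ from E15 to E19, 1 was higher (*Muc5b*) against 2.05% of genes and 0 were lower against 3.46%, with medians of 0.74 and -0.18. Under 6 of 9 other settings 2 to 6 members were past 2-fold at that step, among them 3 higher and 3 lower without the cells that had all 4 of *Vcan*, *Igf2*, *Sox11* and *H19*. From E19 to pup in the GE-SCJ, 8 were higher, all but *Muc1* and *Muc5ac*, against 5.70%, and 0 lower against 9.44%, with medians of 2.03 and -0.23.

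Between the regions, the order of some members turned with the stage. *Gkn3* and *Muc6* were higher in the stomach, and *Muc5ac* lower, at E15, E19 and in the pup. At E15, *Gkn3* and *Muc6* were at least 2-fold higher in the stomach than in the GE-SCJ (2 of 10, against 0.826% of genes) and *Muc5ac* was lower (1, against 0.796%). Without the cells of cluster 5, *Gkn3* of the E15 stomach was still 81.2 CPM against 31.3 in the GE-SCJ, but the log2 ratio of *Muc6* went from 2.69 to 0.67. At E19, *Tff1*, *Gkn1*, *Gkn2* and *Gkn3* were higher in the stomach (4, against 1.09%) and *Muc5ac* lower (1, against 0.500%). The ratios of *Gkn1* and *Gkn2* at E19, 2.90 and 2.60, were the largest of any member between the regions at that stage. With CPM averaged over single cells, the ratio of *Gkn3* at E19 went from 1.60 to 0.87. In the pup, *Gkn3* was higher in the stomach (1, against 0.615%) and *Tff3* and *Muc5b* were lower (2, against 1.00%), by 1.29 (0.98 with CPM averaged over single cells) and 1.34, and *Tff1*, *Gkn1* and *Gkn2* were each slightly lower in the stomach, by 0.46, 0.36 and 0.36. In the pup, cluster 12, which carried the parietal cell genes *Atp4a* (9459 CPM) and *Atp4b* (8200 CPM), made up 30.5% of the stomach and 13.7% of the GE-SCJ columnar cells, and its part in these differences was not tested.

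**Figure D3:**
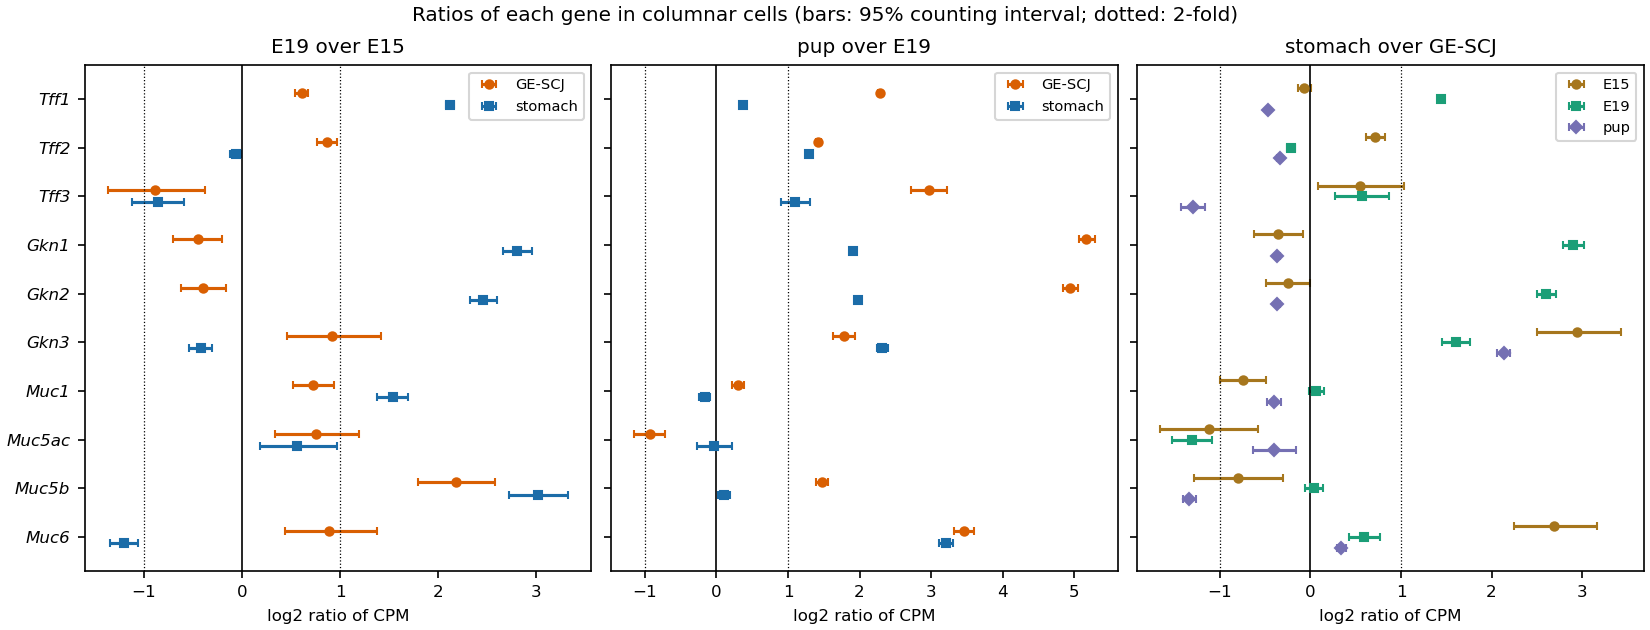
Log2 ratio of CPM for each gene, E19 over E15 and pup over E19 in the GE-SCJ (circles) and stomach (squares), and stomach over GE-SCJ at E15, E19 and pup, with bars for the 95% counting interval and dotted lines at 2-fold. *Gkn1* and *Gkn2* stand at 2.81 and 2.46 in the stomach at the first step and at 5.17 and 4.95 in the GE-SCJ at the second.

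For *Tff1*, *Gkn1* and *Gkn2*, most immune cells had a UMI as well (95.8%, 63.3% and 76.0%), while 1.98% had one of *Tff3* and 17.2% one of *Muc1*. *Tff1* had a UMI in 96.9% to 100% of the columnar cells of each stomach and GE-SCJ group, against immune cells that were shallower (median 8266.5 against 25118 UMIs). After thinning each cell to 5000 UMIs, which left out 101 of 354 immune cells and 1 to 21 columnar cells of each of these groups, *Tff1* was seen in 67.7% of pup stomach columnar cells and 76.3% of immune cells. *Gkn1* was seen in 36.1% and 43.5%, and *Gkn2* in 39.9% and 52.2%. These pup stomach shares were below the immune ones, although the summed levels of the same genes were above background. The intervals overlapped for *Tff1* (62.5 to 72.7 against 70.6 to 81.4) and *Gkn1* (31.0 to 41.4 against 37.3 to 49.8). They did not for *Gkn2* (34.6 to 45.3 against 45.8 to 58.5). Thinned *Tff1* was above the immune share in the stomach at E15 (87.8%) and E19 (83.5%) and in the GE-SCJ at E19 (84.6%). In the GE-SCJ it was below that share at E15 (75.0%) and in the pup (72.9%). The interval of each of these *Tff1* shares overlapped the immune one. Thinning removed a larger part of the UMIs from the deeper columnar cells, so a lower share cannot tell whether these cells were at background. *Muc1* behaved differently, with a UMI in 38.1% (30.0 to 46.7) of stomach columnar cells at E15, 70.4% (65.3 to 75.2) at E19 and 63.3% (58.0 to 68.5) in the pup, against 9.88% of immune cells. Unthinned, these were 80.0%, 93.7% and 85.8%, and 17.2% in immune cells. *Tff2* was at 40.3%, 57.7% and 65.4% in the stomach, and 60.9% at E19 and 77.5% in the pup GE-SCJ, against 27.7% in immune cells. *Muc6* was at 23.7%, 23.2% and 53.4% in the stomach and 17.3%, 18.4% and 56.7% in the GE-SCJ. The immune share was 20.9% (16.1 to 26.5), and only the pup shares stood over that interval.

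The signal of the pit and neck genes was held by few cells. In the pup stomach, the 10% of columnar cells with the most of a gene held 97.3% of the *Gkn1*, 96.9% of the *Gkn2*, 96.0% of the *Gkn3*, 92.8% of the *Muc5ac*, 82.5% of the *Tff1* and 80.6% of the *Muc5b* UMIs, but 66.8% of the *Tff2*, 63.8% of the *Muc6* and 30.8% of the *Muc1* UMIs. The median pup stomach cell had 59.5 CPM of *Gkn1* and 244 CPM of *Tff1*, both under the median immune cell (82.6 and 398 CPM), and 233 CPM of *Muc1*. In UMIs per cell the order of *Gkn1* and *Tff1* was the other way, with medians of 2 and 6 in these deeper columnar cells against 1 and 4 in immune cells. *Gkn1* was less concentrated in the GE-SCJ at E19, with 49.7% in the 10% of cells with the most of it. Its summed level there was 92.7 CPM, against 122 CPM in immune cells. Among the pup columnar cells, the 53 cells of cluster 2 had 68046 CPM of *Tff1*, 34280 of *Gkn1*, 33636 of *Gkn2* and 3098 of *Muc5b*, and held 76.8% of the pup *Gkn1* UMIs. Their median *H19* was 72.8 CPM. The 448 pup cells of cluster 5 held 89.3% of the *Muc6*, 91.0% of the *Gkn3* and 86.1% of the *Tff2* UMIs, and also 55.2% of the *Tff1* UMIs. In CPM these clusters lay closer, with 3596 CPM of *Tff2* in the pup cells of cluster 5 and 3658 in those of cluster 2. *Gkn3* had 848 and 669 CPM there, and *Muc6* 1033 and 514 CPM. The 151 of cluster 12 had 56.6 CPM of *Gkn1*, 44.8 of *Gkn3* and 179 of *Muc6*. The clusters were made from these same counts, so this is a description of where the UMIs lay.

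**Figure D4:**
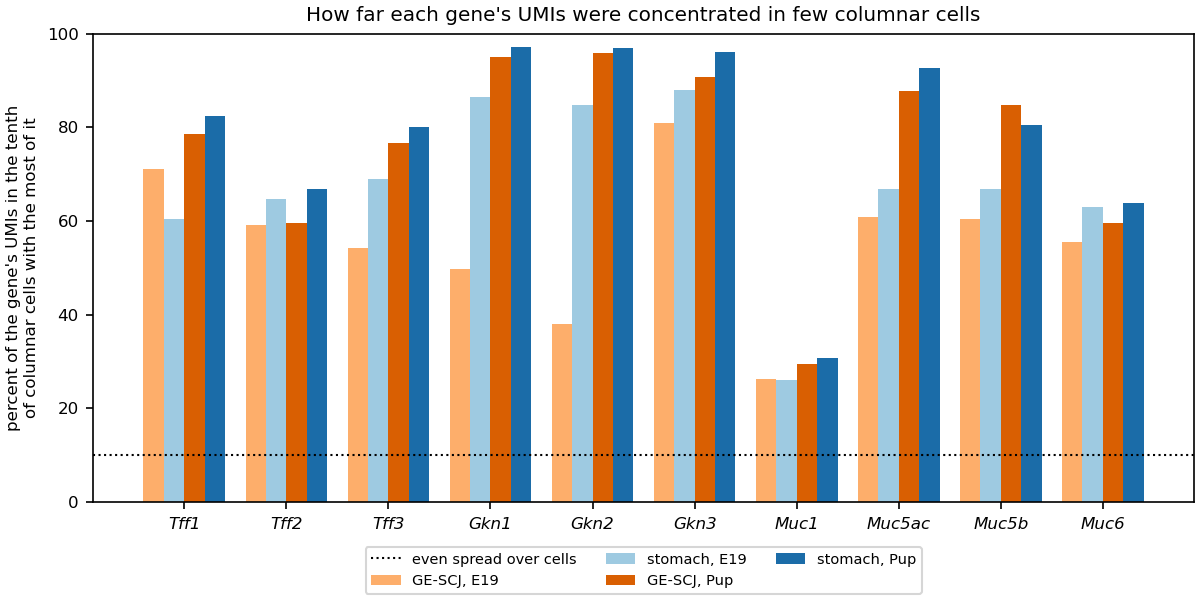
Percent of each gene's UMIs found in the 10% of columnar cells with the most of it, for the GE-SCJ and stomach at E19 and pup, with a dotted line where an even spread would lie. That line is not the level of background cells: in immune cells the share was 31.6% for *Tff1*, 39.4% for *Gkn1* and 34.8% for *Gkn2*. *Muc1* stays between 26.1% and 30.8%, and *Gkn1* and *Gkn2* lie between 95.1% and 97.3% in both pup groups.

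Cell by cell, few cells were above the immune cutoff used here for *Muc6* and also for *Gkn1*, *Gkn2*, *Muc5ac* or *Muc5b*. Few were above it for both *Gkn1* and *Gkn3*. The counts pool all stages unless a group is named. No number expected from the totals of the 2 genes was set beside them, so pairs with unlike totals cannot be compared by these counts. A cell was counted as above background for a gene when its CPM passed the 99th percentile of single immune cells. The cutoffs were 5753 CPM for *Tff1*, 2739 for *Gkn2*, 1713 for *Gkn1*, 1619 for *Muc6* and 1328 for *Tff2*. They were 903 CPM for *Gkn3*, 894 for *Muc5b* and 121 for *Muc5ac*. Each was well above the summed immune level of its gene, so cells with a lower level were not counted. In the pup stomach 34 of 351 columnar cells (9.69%, 6.80 to 13.3) were above for *Gkn1* and 61 (17.4%, 13.6 to 21.8) for *Muc6*, and in the pup GE-SCJ 41 of 291 (14.1%, 10.3 to 18.6) for each gene. No cell of either group was above for both. Over all 1540 columnar cells, 113 were above for *Gkn1*, 119 for *Muc6* and 1 for both, and 90 were above for *Gkn2* and 0 for *Gkn2* and *Muc6* together. At this cutoff, and for counting error only, that 0 allows a share of up to 0.195%. *Gkn3* and *Gkn1*, from the same gene cluster, also met in 0 of 1540 cells (80 and 113 above). In contrast, 89 of the 90 *Gkn2* cells were among the 113 *Gkn1* cells, and 110 of these 113 were above for *Tff1*. Of the 80 *Gkn3* cells, 45 were above for *Muc6*. *Muc5ac* met *Muc6* in 2 cells (129 and 119 above), both in the pup GE-SCJ, and *Muc5b* met *Muc6* in 1 (86 above). The pup stomach and pup GE-SCJ held 61 and 41 of these *Muc6* cells but 20 and 22 of the *Muc5ac* cells. Most *Muc5ac* cells thus lay outside the groups that held most *Muc6* cells. In the pup GE-SCJ, 17 of the 22 *Muc5ac* cells and 25 of the 31 *Muc5b* cells were above for *Gkn1*, and in the pup stomach 15 of 20 and 10 of 13. *Tff1* and *Tff2*, which mark different cells by their textbook roles, met in 146 cells (294 and 417 above). With the immune level scaled to the depth of each cell instead, a rule chosen after the data were seen, more cells passed, and 6 of 143 *Gkn2* and 308 *Muc6* cells were above for both. By that rule *Gkn1* and *Gkn3* met in 5 cells, and *Muc5b* and *Muc6* in 26 (278 and 308 above).

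The correlations over cells set the pit genes together and *Gkn3* with *Muc6*. Over the 351 pup stomach columnar cells, which share 1 library and whose log counts were scaled to 10000 UMIs, *Gkn1* and *Gkn2* had r = 0.94, *Gkn1* and *Tff1* 0.81, *Gkn1* and *Muc5ac* 0.72, and *Gkn1* and *Muc5b* 0.59. *Gkn3* and *Muc6* had 0.63, and *Tff2* and *Muc1* 0.54. *Tff2* had 0.34 with the pit gene *Tff1*, 0.26 with *Gkn3* and 0.24 with *Muc6*, and in the E19 stomach 0.38, 0.18 and 0.16. *Muc6* stood against *Tff1* at -0.36 and against *Gkn1* at -0.29. In the pup GE-SCJ *Gkn1* and *Gkn2* again had 0.94 and *Gkn1* and *Muc5b* 0.77, and *Muc6* had -0.47 with *Tff1* and -0.39 with *Gkn1*. In the E19 stomach (366 cells) *Gkn1* and *Gkn2* had 0.85 and *Gkn3* and *Muc6* 0.57, but *Gkn1* and *Muc5ac* had 0.19 and *Gkn1* and *Muc6* -0.06. *Muc5ac* and *Muc5b*, which are neighbours in the genome, had 0.37 at E19 and 0.57 in the pup stomach. The correlation of each of the 10 genes with the log of cell depth was between -0.17 and 0.03 in the pup stomach.

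**Figure D5:**
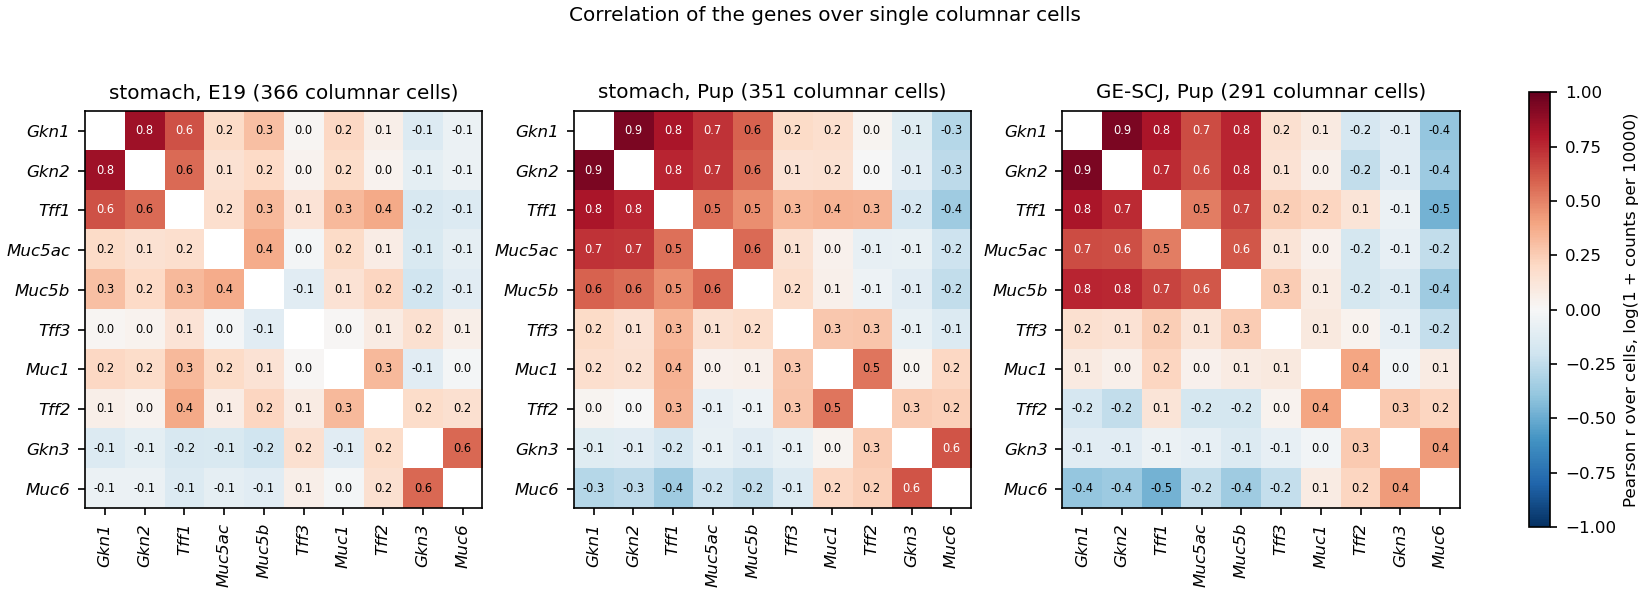
Pearson r over single columnar cells, of log(1 + counts per 10000), for each pair of the 10 genes in the E19 stomach, pup stomach and pup GE-SCJ. In the pup panels *Gkn1*, *Gkn2*, *Tff1*, *Muc5ac* and *Muc5b* form a block at the upper left, and *Gkn3* with *Muc6* (0.63 and 0.43) another at the lower right.

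Among 10112 genes with a UMI in at least 10% of pup stomach columnar cells, the 5 most like each member were taken by r. For *Gkn1* these were *Gkn2*, *2210407C18Rik* (0.87), *Lypd8* (0.85), *Rep15* (0.85) and *Tff1*, and for *Gkn2* they were *Gkn1*, *2210407C18Rik* (0.86), *Rep15* (0.84), *Lypd8* (0.83) and *Sptssb* (0.80). *Tff1* was most like *Gsta1*, a glutathione transferase (0.89), then *Lypd8*, *Lgals4*, *Rep15* and the mucin-like *Mucl3*. *Muc5ac* was most like *Gkn1*, *Gkn2* (0.71), *Rep15* (0.63), *Lgals3* (0.62) and *2210407C18Rik* (0.62). *Muc5b* was most like *Duox2*, an oxidase that makes hydrogen peroxide at epithelial surfaces (0.59), then *Gkn1*, *Muc5ac*, *Fhl1* and *Gkn2*. *Muc6* was most like *Gfpt1*, the first enzyme of the hexosamine pathway (0.83), *Fkbp11* (0.82), the mucin-folding protein *Agr2* (0.80), *Tmed3* (0.79) and the pepsinogen *Pgc* (0.79). *Gkn3* was most like *Cgref1* (0.73), *A4gnt*, which caps *Muc6* glycans with N-acetylglucosamine (0.64), *Muc6*, *Fkbp11* (0.60) and *Snhg18* (0.60). *Tff2* was most like *Golm1* (0.68), *Bace2* (0.61), *Galnt7* (0.59), *Gmds* (0.58) and *Clu* (0.58), and *Muc1* like *Clu* (0.70), *Foxq1*, *Bace2*, *Klf5* and *Alcam* (each 0.62). The values for *Tff3* were lower, with *Oit1* at 0.42, *Nr1i2* at 0.38, *Selenop* at 0.37 and *Gsta1* at 0.37. In the E19 stomach, *Gsta1* and *Lypd8* had 0.76 and 0.78 with *Tff1*, and *Pgc* had 0.59 with *Muc6*, but *Tmed3* had 0.06 with *Muc6* and *Oit1* 0.05 with *Tff3*.

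Genes that make and fill mucous cells were followed by lists. Their counts include genes with fewer than 100 UMIs in a comparison, and the shares beside them are those of all tested genes. Of 12 measured genes of a pit cell list, 5 were at least 2-fold higher at E19 than at E15 in the stomach (*Psca* 2.01, *Mucl3* 2.11, *Capn8* 2.32, *Ctse* 1.86 and *Sult1c2* 3.64 as log2 ratios) and 1 lower (*Onecut2*, -1.07), against 3.20% and 2.60% of genes, with a median of 0.83 and 2 of the 12 under 100 UMIs. In the GE-SCJ 1 was higher at that step and 0 lower (2.05% and 3.46%), the one being *Onecut2* with 28 UMIs at E19 and 0 at E15. From E19 to pup, 4 were higher in the GE-SCJ (*Psca* 2.75, *Mucl3* 2.16, *Capn9* 3.65, *Sult1c2* 2.31), against 5.70% of genes, and 2 in the stomach (*Psca* 2.61, *Capn9* 1.83), against 5.48%. At that step *Onecut2* was lower in both, at -2.47 on few UMIs and -1.92, where 9.44% and 9.84% of genes were lower. *Onecut2*, a transcription factor, was 53.9 CPM in the E15 stomach and had no UMI in the E15 GE-SCJ columnar cells.

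Of 15 measured genes of an O-glycosylation list, which build the sugar chains of mucins, 3 were at least 2-fold higher from E15 to E19 in the stomach (*Gcnt3* 1.14, *Gcnt4* 2.02, *Fut2* 1.88) and 1 lower (*St3gal1*, -1.98), against 3.20% and 2.60% of genes, with 3 of the 15 under 100 UMIs. In the GE-SCJ 6 were higher and 0 lower, against 2.05% and 3.46%, *Fut2* the furthest at 2.67, with 5 of the 15 under 100 UMIs. From E19 to pup, 3 were higher in the stomach (5.48% of genes) and 5 in the GE-SCJ (5.70%), 0 lower in either, and 3 of the 15 had under 100 UMIs at each, with *A4gnt* at 1.81 and 2.61 and *Galnt6* at 1.58 and 1.37 in both. Of 11 genes of a mucin folding and secretion list, *Agr2* was higher from E19 to pup in the stomach (1.56) and the GE-SCJ (1.66) and from E15 to E19 in the GE-SCJ (1.54). At the pup step 3 genes were higher and 2 lower in the stomach (5.48% and 9.84% of all genes), and 4 higher and 2 lower in the GE-SCJ (5.70% and 9.44%), with 1 of the 11 under 100 UMIs. *Fcgbp*, a mucus-binding protein, was 19.4 CPM in the E15 stomach, 82.0 at E19 and 2.19 in the pup. Of 7 other mucins measured, 6 had fewer than 100 UMIs in both groups together at each of the 4 steps. *Muc4*, a membrane mucin, was the one with more, at 14.6 CPM in the E19 and 3.94 CPM in the pup stomach, and *Muc2*, the gel-forming mucin of the intestine between *Muc6* and *Muc5ac*, was at 0.838 CPM or less in every stomach and GE-SCJ group.

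In the adult GE-SCJ, the 19 columnar cells had 4853 CPM of *Tff1*, 3842 of *Tff2*, 1374 of *Gkn3*, 579 of *Muc6*, 292 of *Muc1*, 206 of *Gkn2*, 178 of *Gkn1*, 72.6 of *Muc5b*, 38.3 of *Tff3* and 26.2 of *Muc5ac*. One cell held 69.9% of the *Gkn3* UMIs and another 44.1% of the *Tff1* UMIs. Without the 8 of these cells in the mostly prenatal cluster 2, *Gkn3* was 3007 CPM, *Muc6* 1239, *Tff2* 5884, *Gkn1* 260 and *Gkn2* 157. The esophagus had columnar cells too, and in each stage they were few. At E19, 20 cells had 6756 CPM of *Tff1* and 501 of *Gkn1*, and in the pup 10 cells had 5746 and 137, with 70.9% of the *Tff1* UMIs in 1 cell. In the adult esophagus, 1 of 7 cells held most of the *Gkn1* and 89.7% of the *Tff1* UMIs. *Muc5ac* had no UMI in the 9 columnar cells of the E15 esophagus, which allows up to 12.2 CPM.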

How the data were processed

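Cells of 1 multiplexed 3′ single-cell pool were analysed. The authors aligned and counted the reads, and the submitters' processing notes name Cell Ranger 6.1.1 and the build mm10. They deposited raw UMI counts per gene and cell after their own filters on cells, a cell table with the percent of mitochondrial UMIs, labels and clusters, and the region and stage tag of each cell. No further doublet removal was run. The table of tag sequences was not used. The design text gives 6, 2, 2 and 3 mice by stage, and the methods describe 3 mice combined per sample.

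Counts were summed over the cells of a label, region and stage and divided by all UMIs of those cells (CPM). Columnar groups held 138367 to 11420234 UMIs. Exact Poisson intervals were taken for CPM, Clopper-Pearson intervals for shares, and exact conditional intervals for log2 ratios, with 1 UMI added to each sum, all at 95%. A count of 0 was given the limit that 3 counts allow. UMI counts of a 3′ assay are not divided by transcript length, so levels are compared within a gene. With 1 sample per group no test was made. A ratio was counted from 2-fold on, for members and all genes among those with at least 100 UMIs, and for lists among all measured genes. Named genes were the 10 members, the 5 genes with the highest Pearson r to each over pup stomach columnar cells, and listed genes past 2-fold. One gene that this rule names is not reported here. Members and lists were chosen by name, with earlier results of these data known. Alternatives changed 1 choice each (the stricter filter on cells sets both UMIs and mitochondrial percent), and those that left out cells by their deposited cluster or scaled the background to cell depth were added after the data were seen. The steps were checked on simulated data. For the ratios these were Poisson draws of group sums without variation between cells, so that check does not cover signal held by few cells. Tables were handled with pandas 2.3.3 and numpy 2.4.6, intervals came from scipy 1.17.1 and plots from matplotlib 3.10.9, all under Python 3.11.15.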

Additional observations from a re-analysis of the deposited data

Results flagged for a closer look

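The results here went in opposite directions in 2 regions, or at 2 stages, with both counting intervals excluding 0. With 1 sample per group, none of these differences was tested. From E15 to E19 the log2 ratio in the stomach minus that in the GE-SCJ was 3.26 for *Gkn1* (2.81 and -0.45), 2.85 for *Gkn2* (2.46 and -0.39), -0.93 for *Tff2* (-0.06 and 0.86), -1.34 for *Gkn3* (-0.42 and 0.92) and -2.09 for *Muc6* (-1.20 and 0.89). The stomach values of the last 3 rest on E15 cells of cluster 5. The GE-SCJ value of *Gkn3* turned on E19 cells instead, and 1 cell held 47.9% of its E19 UMIs there. Without cells whose cluster goes with another stage, *Gkn3* in the GE-SCJ was 31.3 CPM at E15 and 32.1 CPM at E19, near the immune 32.9. Without the top 1% of cells, the GE-SCJ values of *Gkn1* and *Gkn2* were 0.49 and 0.36, so their directions were then the same in both regions, and the prenatal GE-SCJ levels of both were near the immune level. Without the cells that had all 4 of *Vcan*, *Igf2*, *Sox11* and *H19*, the GE-SCJ values were -1.52 and -1.34 instead. From E19 to pup it was -0.46 for *Muc1* (-0.17 and 0.30).

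The log2 ratio of stomach over GE-SCJ at E15 minus that at E19 was 0.93 for *Tff2* (0.72 and -0.21), -3.26 for *Gkn1* (-0.36 and 2.90) and -2.85 for *Gkn2* (-0.25 and 2.60). The E15 value of *Tff2* was -0.21 without cells whose cluster goes with another stage, and those of *Gkn1* and *Gkn2* were 0.32 and 0.26 without the top 1% of cells, so that no opposite direction was left under these settings. Other settings moved the E15 values further from 0. Without the cells that had all 4 of *Vcan*, *Igf2*, *Sox11* and *H19*, they were 1.24 for *Tff2*, -1.94 for *Gkn1* and -1.60 for *Gkn2*. With CPM averaged over single cells *Tff2* was at 1.34, and with the immune level subtracted *Gkn1* was at -2.07. At E19 minus pup it was 1.91 for *Tff1* (1.45 and -0.46), 1.86 for *Tff3* (0.57 and -1.29), 3.27 for *Gkn1* (2.90 and -0.36) and 2.97 for *Gkn2* (2.60 and -0.36).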

How the results depend on the processing

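Of 63 alternative counts of members past 2-fold, 55 were within 1.5 times the count reported. These counts add both directions, so a change of gene or direction can go unseen in them. In the stomach from E15 to E19, 5 higher and 1 lower became 5 and 3 with CPM averaged over single cells. They became 6 and 0 without the top 1% of cells, and 7 and 0 without cells whose cluster goes with another stage. From E15 to E19 in the GE-SCJ, 1 member was past 2-fold in either direction, against 4 when CPM was taken in single cells and averaged, 3 without the top 1% of cells, 6 without cells that had all 4 of *Vcan*, *Igf2*, *Sox11* and *H19*, 36 of 53 cells at E15 there (3 higher and 3 lower), 2 without cells whose cluster goes with another stage, 3 with the immune level subtracted and 2 with 10 UMIs added. For stomach against GE-SCJ at E15, 3 members were past 2-fold, against 7 without those 4-gene cells and 5 with the immune level subtracted. Of 32 ratios past 2-fold, 30 to 32 were still past 2-fold in the same direction under each of 9 settings. Other ratios passed 2-fold only under some settings. *Tff2* from E15 to E19 in the stomach was -0.06 as reported and 1.54 without the top 1% of cells. It was 1.31 without the 4-gene cells and 2.10 without cells whose cluster goes with another stage. The setting without cells whose cluster goes with another stage left out 0 pup cells, so it left the pup levels as they were. It kept the 53 pup cells of the mostly prenatal cluster 2, which held 76.8% of the pup *Gkn1* UMIs. The median *H19* of these 53 cells was 72.8 CPM, against 74.4 CPM in the pup cells of cluster 5 and 1515 CPM in the E19 cells of cluster 2. *Muc6* from E15 to E19 in the stomach reversed, from -1.20 to 0.82 without cells whose cluster goes with another stage. The cause was not tested. No paired analysis was possible because each group was 1 pooled sample. The adult and esophageal values rest on 7 to 20 columnar cells per group.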
